A study of Mus musculus with 26 samples.

Results

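Csf1r, Csf1 and Il34 were followed by gene symbol through all 26 libraries, as 3 of the 30406 genes present in both gene lists used for counting. The libraries came from mouse somatosensory cortex (S1) and asked how cortical cells and microglia respond to maternal immune activation (MIA). Every dam was injected at E12.5, either with saline or with poly(I:C), a synthetic RNA that triggers antiviral responses. Wild-type C57Bl/6N microglia were sorted at 3 ages, with 3 saline and 3 MIA libraries at E13, 3 saline and 3 MIA libraries at E15, and 4 saline and 2 MIA libraries at P14. The P14 saline libraries 3F and 3M are the female and male parts of 1 replicate number and were counted as separate libraries, while the other P14 libraries mixed the sexes. The sort used Cd11b, Cx3cr1 and Cd45, so Csf1r itself was not a sorting marker, and embryonic libraries held microglia pooled from several embryos of both sexes. Nuclei were taken at E15 from frozen cortical tissue of males and passed through a sorter, with no microglial marker named for that step, with 2 libraries in each of 4 groups: wild type after saline, wild type after MIA, Csf1r-/- after saline and Csf1r-/- after MIA. The Csf1r-/- line carries a null allele in all tissues, not in microglia alone, and was kept on C57Bl/6N. The labels do not say which libraries came from separate litters. Per the study's methods the wild-type nuclei came from littermates of the Csf1r-/- ones and from few dams, so nuclei libraries share dams, which no test took into account. P-values measure the spread between libraries, some of which may be technical.

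CSF1R is a receptor tyrosine kinase on the surface of microglia and other macrophages, which need its signal to survive, divide and settle in the brain. CSF1 and IL34 are separate proteins that bind it at overlapping sites, and in the adult forebrain IL34 comes chiefly from neurons while CSF1 comes chiefly from glia. A microglial cell usually reads both ligands from its neighbours, and CSF1 can also be made by macrophages themselves. UMIs (unique molecular identifiers, 1 per captured RNA molecule) were read from the 3′ end of transcripts.

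The Csf1 promoter is shown because Csf1 was the member that varied most between microglial states. The sequence is RefSeq's for GRCm38.p6, chr3:107760470-107760719 on the minus strand, the 250 bases before the start of the gene. Csf1 (ENSMUSG00000014599) itself lies at chr3:107741048-107760469 on the minus strand of GRCm38. Capitals mark GGAAAGTCCC, a match to the NF-kB consensus on the opposite strand.
Csf1: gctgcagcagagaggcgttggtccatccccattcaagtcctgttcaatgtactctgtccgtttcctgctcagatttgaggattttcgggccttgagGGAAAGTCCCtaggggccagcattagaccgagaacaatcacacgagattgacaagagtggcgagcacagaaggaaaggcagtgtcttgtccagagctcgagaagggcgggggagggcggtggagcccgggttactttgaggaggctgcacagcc
The match lay 154 to 145 bases before the start, and 3.899% of 32851 promoters of the same length held the consensus on either strand. An AP-1 motif (TGANTCA, found in 6.749% of promoters) and a CRE motif (TGACGTCA, 1.546%) had no match in this window, and no bases of the match belong to another motif searched. A match of letters is a description of the sequence only. Of the members, Csf1 alone had a promoter in the reference table.

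The 18 sorted libraries held 61134 microglia, and the 8 nuclei libraries held 43456 nuclei with at least 500 UMIs and 200 genes, of which 41539 remained after doublets were removed. Total UMIs ranged from 6035200 to 95765223 per sorted library and from 9123536 to 16413362 per nuclei library. All 12 microglial markers, such as C1qa and C1qb, were found in every sorted library, with summed levels of 22879 to 25440 CPM (UMIs per 1000000 UMIs) at E13, 33005 to 45396 at E15 and 58105 to 69322 at P14. Libraries shared more cell barcodes than separate droplets should give, up to 258 between E13 MIA replicate 2 and P14 saline replicate 3F, and removing shared barcodes changed no call on a member. In 2 nuclei libraries the microglial markers went against the label: the library labelled wild-type MIA replicate 2 held 0 microglial nuclei, and the library labelled Csf1r-/- saline replicate 2 held 7. Tests of Csf1r and Csf1 in nuclei, the class order of Csf1 and the UMIs of Il34 are therefore given with and without these 2 libraries.

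Csf1r (ENSMUSG00000024621) lies at chr18:61100598-61132149 on the plus strand of GRCm38, directly beside Pdgfrb, which encodes a receptor of the same family. Its mRNA was abundant in sorted microglia at every age and rose with age. At E13 it stood at 1311, 1369 and 1082 CPM in the saline libraries and at 1329, 1487 and 992 CPM in the MIA libraries. At E15 the saline libraries had 1414, 2238 and 2238 CPM and the MIA libraries 1321, 2403 and 2161 CPM. At P14 the saline libraries had 3613, 3872, 3451 and 3574 CPM and the MIA libraries 3789 and 3939 CPM. The P14 libraries all stood above every embryonic one, the E15 libraries overlapped with E13 through replicate 1 of each E15 group, and saline and MIA overlapped at each age. Age cannot be told apart from differences in preparation between stages, for this or any other gene. Depth differed too, with library medians of 8179 to 26225 UMIs per cell at E13, 8714 to 12454 at E15 and 3648.5 to 6791 at P14.

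In saline microglia Csf1r rose by 0.66 on the log2 scale from E13 to E15 (SE 0.16, adjusted p = 0.012, edgeR quasi-likelihood test with Benjamini-Hochberg adjustment). In that comparison 26.6% of 13318 genes were called, 15.1% of them higher at E15 as a share of all tested. From E15 to P14 it rose again, by 0.65 (SE 0.15, adjusted p = 0.0037 by the same test), where 52.5% of genes were called and 25.7% were higher. The call at E15 rested in part on E13 saline replicate 3, without which the rise was 0.58 with an adjusted p of 0.053. Mean Csf1r was 1254 ± 152 CPM at E13 (SD, n = 3), 1963 ± 476 at E15 (n = 3) and 3627 ± 177 at P14 (n = 4). With P14 libraries 3F and 3M summed into 1, the rises were 0.66 and 0.68 (edgeR adjusted p = 0.019 and 0.0071).

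The MIA libraries gave rises of similar size with weaker support. Csf1r was 0.72 higher at E15 than at E13 (log2, SE 0.21, edgeR adjusted p = 0.037, with 20.4% of genes called, 10.9% higher and 9.53% lower) and 0.78 higher at P14 than at E15 (SE 0.23, adjusted p = 0.029, with 30.6% called and 14.8% higher). The first call was lost on leaving out any 1 of 7 of the 8 MIA libraries, with E15 MIA replicate 1 the exception, and adjusted p then lay between 0.062 and 0.153 for values of 0.53 to 0.80. It was also lost with the replicate number as a block (0.71, edgeR adjusted p = 0.074) and with no cluster removed (0.61, adjusted p = 0.15). The second was lost without E13 MIA replicate 1 (0.75, adjusted p = 0.056), P14 MIA replicate 1 (0.80, adjusted p = 0.125) or P14 MIA replicate 2 (0.78, adjusted p = 0.14), and also with the block (0.76, edgeR adjusted p = 0.072) and with no cluster removed (0.90, adjusted p = 0.057). Means were 1269 ± 253 CPM at E13 (n = 3), 1961 ± 567.8 at E15 (n = 3) and 3864 ± 106 at P14 (n = 2). The saline and MIA fits were separate, and the difference between their rises was tested only for the embryonic ages.

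**Figure D1:**
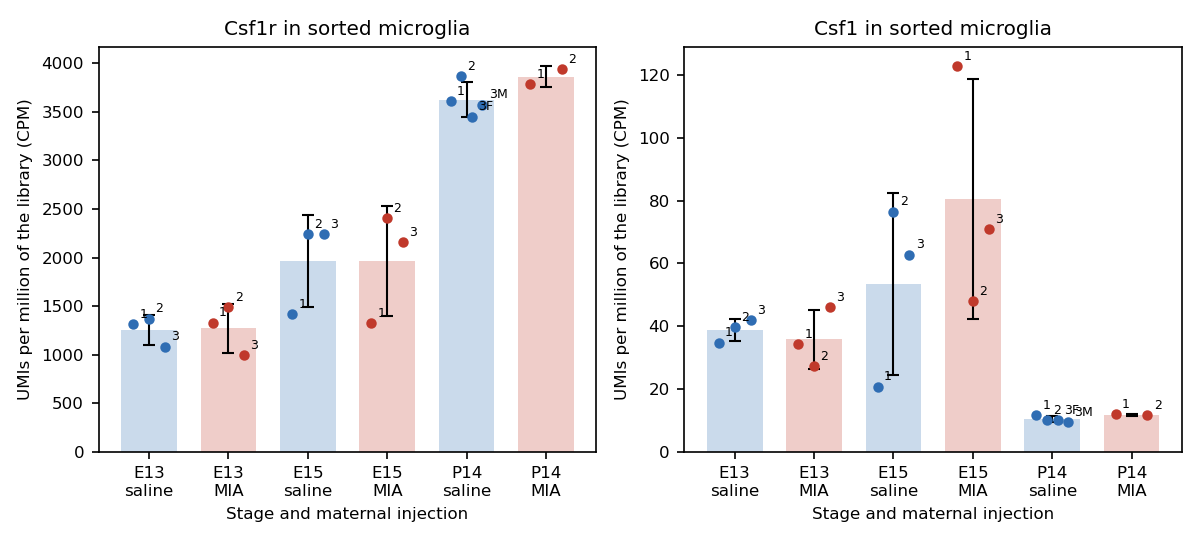
Level of Csf1r (left) and Csf1 (right) in each of the 18 sorted microglia libraries, in CPM on linear axes from 0, with 1 numbered point per library, a bar at each group mean and a line for the SD. Csf1r reaches 3451 to 3939 CPM at P14, while Csf1 falls to between 9.39 and 12.04 CPM there and is most uneven at E15.

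Several cell states changed with age beside Csf1r. The summed level of 8 dividing-cell markers fell from 2038 to 2747 CPM at E13 to 521 to 2095 CPM at E15 and 112 to 312 CPM at P14, and 9 markers of maturing or homeostatic microglia, such as P2ry12 and Tmem119, went from 2934 to 3192 CPM through 5203 to 7940 CPM to 17085 to 18627 CPM. Their part in the rise of Csf1r was not tested. E15 saline replicate 1, which had the lowest Csf1r of its group, also had the most dividing-marker RNA at E15 (2095 CPM). Within cells of the maturing class alone, E15 Csf1r was 1820, 2627 and 2496 CPM in saline libraries and 1722, 2791 and 2536 CPM in MIA libraries, so replicate 1 was low in both groups inside a single class as well. In other classes the saline means of Csf1r were also higher at E15 than at E13, at 1596 against 1209 CPM in dividing cells, 1686 against 1340 in Mcm-led cells and 2031 against 1306 in Ms4a7-positive cells (n = 3 libraries each). In maturing cells the saline means were 2314 CPM at E15 (n = 3) and 1723 CPM at E13 (n = 2). These values within classes are descriptions with no test. In sums over all cells of a library, the makeup of the cells and the RNA per cell cannot be told apart.

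Csf1, the ligand that macrophages can make, was scarcer by more than an order of magnitude and took another course. At E13 its level was 34.8, 39.6 and 41.8 CPM in saline and 34.2, 27.2 and 46.0 CPM in MIA libraries. At E15 it was 20.7, 76.5 and 62.8 CPM in saline and 123, 48.0 and 70.9 CPM in MIA libraries. At P14 it was 11.7, 10.1, 10.1 and 9.39 CPM in saline and 12.04 and 11.6 CPM in MIA libraries. The E15 libraries were the most uneven, holding both the lowest and the highest embryonic value, and all P14 libraries lay below all embryonic ones. E13 MIA replicates 1 and 2 were small, with 267 and 355 microglia and 240 and 164 Csf1 UMIs. Replicate 3 of that group held 5521 microglia and 4402 Csf1 UMIs.

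From E15 to P14 Csf1 fell by 2.59 on the log2 scale in saline microglia (SE 0.33, edgeR adjusted p = 9.0e-05), a level at P14 of 0.166 times that at E15, where 26.7% of genes were lower. In MIA microglia it fell by 3.00 (SE 0.43, edgeR adjusted p = 0.00077), where 15.7% of genes were lower. Both calls held on leaving out any 1 library. Between E13 and E15 the saline difference was 0.47 (SE 0.34, edgeR adjusted p = 0.324), and it was 0.85 with an adjusted p of 0.0010 without E15 saline replicate 1 but 0.096 with an adjusted p of 0.87 without E15 saline replicate 2. The MIA libraries rose by 1.25 (SE 0.34, edgeR adjusted p = 0.030, with 10.9% of genes higher), a value of 0.71 without E15 MIA replicate 1, and the call was lost without E13 MIA replicate 1 (1.17, adjusted p = 0.107) or E13 MIA replicate 2 (1.06, adjusted p = 0.108), and with no cluster removed (1.03, adjusted p = 0.052).

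Il34 (ENSMUSG00000031750, chr8:110741829-110805924, minus strand, GRCm38), the other ligand, had 0 UMIs in all 12 embryonic microglia libraries. The deepest of these held 95765223 UMIs. At P14 it had 3, 8, 0 and 1 UMIs in saline libraries 1, 2, 3F and 3M and 5 and 2 UMIs in the MIA libraries, 19 in all, and it passed no filter for testing. The sort had also carried along neural cells, which were removed. At P14 these were 389 cells, 216 in a cluster led by neuronal genes and 173 in a cluster led by glial genes as well as neuronal ones. A further 656 cells, whose leading genes were neural in part but which held Csf1r like other microglia (3832 CPM), were kept among the homeostatic cells. In embryonic libraries the removed neural cells were 3633 cells, of which 1131 and 369 lay in 2 clusters led by genes of radial glia and progenitors, Ptprz1 among them, and the rest in clusters led by neuronal genes. Il34 was denser in the P14 neural cells than in microglia, with 25 UMIs or 15.2 CPM (exact Poisson 95% interval 9.83 to 22.4, counting error only), against 13 UMIs in 15917 homeostatic microglia (0.138 CPM, 0.0732 to 0.235), or 10 UMIs in 15261 without the 656 mixed cells (0.110 CPM, 0.0527 to 0.202). It stood at 21.6 CPM in the neuronal cluster (15 UMIs, 12.1 to 35.6) and at 10.5 CPM in the mixed one (10 UMIs, 5.04 to 19.3). By cells, 5.66% of the neural cells and 0.0754% of the homeostatic cells had an Il34 UMI. In embryonic libraries all 6 Il34 UMIs lay in 90 removed erythroid and vessel cells, and the removed neural cells had 0 Il34 UMIs among 18754777, which allows up to 0.160 CPM by the limit of 3 counts.

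MIA itself moved no member past the threshold in sorted microglia, in fits that did not pair same-numbered libraries. At E13 the difference between MIA and saline was -0.09 for Csf1 (log2, 95% interval -0.52 to 0.34) and -0.00 for Csf1r (-0.35 to 0.35), and at P14 it was 0.22 for Csf1 (-0.08 to 0.52) and 0.11 for Csf1r (-0.08 to 0.30). At E15 Csf1r differed by 0.01 (-0.59 to 0.61) and Csf1 by 0.63 (-0.53 to 1.80), so a 3.48-fold higher Csf1 after MIA at E15 lies inside the interval. The background in each of these 3 comparisons was 0% of genes called by edgeR, with 120, 42 and 467 genes at an unadjusted p under 0.05 at E13, E15 and P14, and with 2, 0 and 1 genes called by DESeq2. With the replicate number as a block edgeR called 5 genes at E13, none of them a member. The MIA response differed between E15 and E13 by 0.78 for Csf1 (SE 0.61) and by 0.07 for Csf1r (SE 0.31), with edgeR adjusted p-values of 1.00 and with 0% of genes called.

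**Figure D2:**
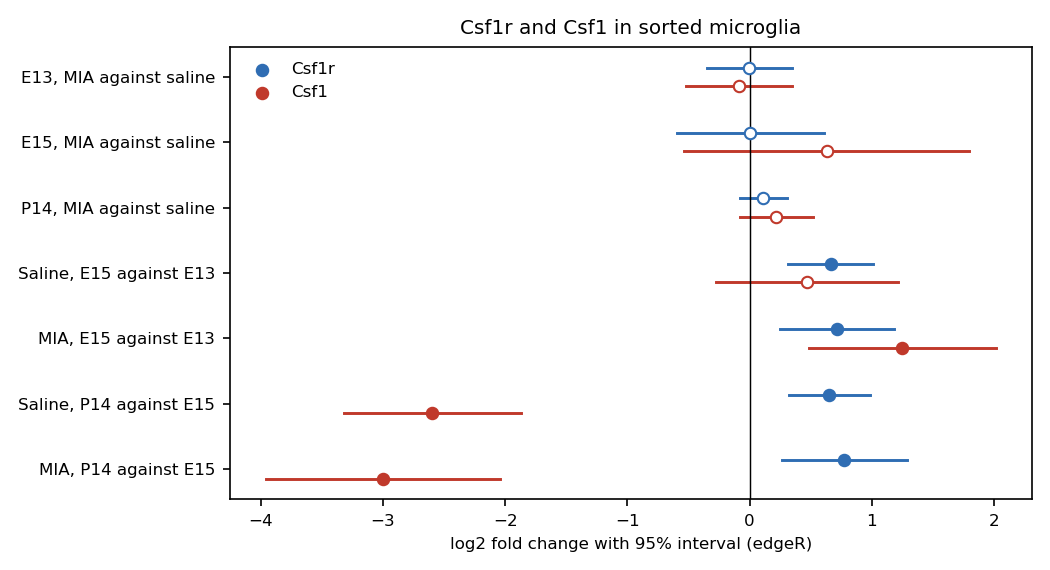
Log2 fold changes of Csf1r (blue) and Csf1 (red) in the 7 comparisons of sorted microglia, with lines for the 95% intervals and filled points where the edgeR adjusted p was under 0.05. The filled points are all in stage comparisons, with Csf1 at -2.59 and -3.00 from E15 to P14, and the intervals of the 3 MIA against saline comparisons cross 0.

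The E15 difference in Csf1 moved with single libraries and with 1 cluster of microglia. It was 0.14 without E15 MIA replicate 1 and 0.27 without E15 saline replicate 1, the lowest library of the other group. It was 0.91 without E15 MIA replicate 2 and 0.99 without E15 saline replicate 2, and edgeR called it in none of these settings. In E15 MIA replicate 1, a cluster led by Spp1, Ccl3 and Ccl4 made up 30.5% of cells and gave 77.2% of Csf1 UMIs. The rest of the library stood at 46.8 CPM. In the other E15 libraries the same cluster made up 1.53% to 5.32% of cells and gave 10.2% to 44.9% of Csf1 UMIs, and the rest stood between 19.2 and 56.9 CPM. With the cluster left out, a setting added once the data had been seen, the E15 MIA difference in Csf1 was 0.31 (log2, edgeR adjusted p = 1.00). The same library had the highest summed levels of the Spp1 list (7 of 7 genes found, 2322 CPM against 392.4 to 749 CPM in the other 5 E15 libraries) and of the inflammatory list (8 of 8 genes, 1003 CPM against 206 to 690 CPM). It also led in neuron markers (6 of 6 genes, 232 CPM against 27.6 to 191 CPM), and the part of these cells in its Csf1 was not tested.

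Microglial classes were rebuilt by clustering without the 3 members, so the clustering did not use their levels. In embryonic libraries the Spp1-high class had the highest Csf1, at 342 ± 195 CPM (SD, n = 6 libraries with at least 20 of its cells, 67.7 to 657). It was followed by a low-UMI class at 76.2 CPM and the Hmox1 and globin-led class at 75.1 CPM. Then came interferon-responsive (48.4 CPM), maturing (45.1), Mcm-led (43.8), dividing (30.5), Crybb1-led (23.3) and Ms4a7-positive cells (20.7), while border macrophages had 4.07 CPM and the removed neural cells 7.05 CPM. The 6 libraries with at least 20 Spp1-high cells were all from E15, and the other means pool E13 and E15. E13 libraries held at most 18 Spp1-high cells. Within E15 the saline means were 31.2 CPM in Crybb1-led, 30.2 in Mcm-led and 24.8 in dividing cells, another order, and the MIA means were 36.0, 44.5 and 39.9 CPM, the pooled order. The low-UMI class joins 3 clusters, of which 1, with 741 of its 4462 cells, held neuronal as well as microglial genes. Without that cluster the low-UMI means were 75.4 CPM for Csf1 and 2891 CPM for Csf1r (n = 12). Spp1-high cells exceeded low-UMI cells in 6 of 6 libraries, by a mean of 1.92 on the log2(CPM + 1) scale (exact paired sign-flip test, two-sided, p = 0.031, adjusted p = 0.206 over 66 pairs of neighbours). None of the 66 neighbouring pairs passed after adjustment, the lowest adjusted p being 0.0806, and with 6 libraries the exact test cannot go below p = 0.031. Of all Spp1-high cells, 69.55% came from E15 MIA replicate 1.

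Csf1r had a flatter order over the same embryonic classes, again with E13 and E15 pooled. The low-UMI class led with 2639 CPM, a lead carried by 1 of its 3 clusters (953 cells at 3959 CPM, against 1516 CPM in 2768 cells and 1816 CPM in the 741 mixed cells), followed by maturing cells at 2112 ± 488 CPM (n = 9). Ms4a7-positive (1640), interferon-responsive (1624), Mcm-led (1531), Spp1-high (1471) and dividing cells (1403) followed, then border macrophages (1249), Crybb1-led (1087) and Hmox1 and globin-led cells (1039). The removed neural cells had 163 CPM. Since Spp1-high cells were counted at E15 alone and Csf1r rose with age, the order turned within E15, where dividing cells had 1596 CPM in saline and 1557 CPM in MIA libraries and Spp1-high cells 1460 and 1481 CPM. Maturing cells exceeded Ms4a7-positive cells in 9 of 9 libraries by 0.33 (log2, exact paired sign-flip test p = 0.0039, adjusted p = 0.0806).

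**Figure D3:**
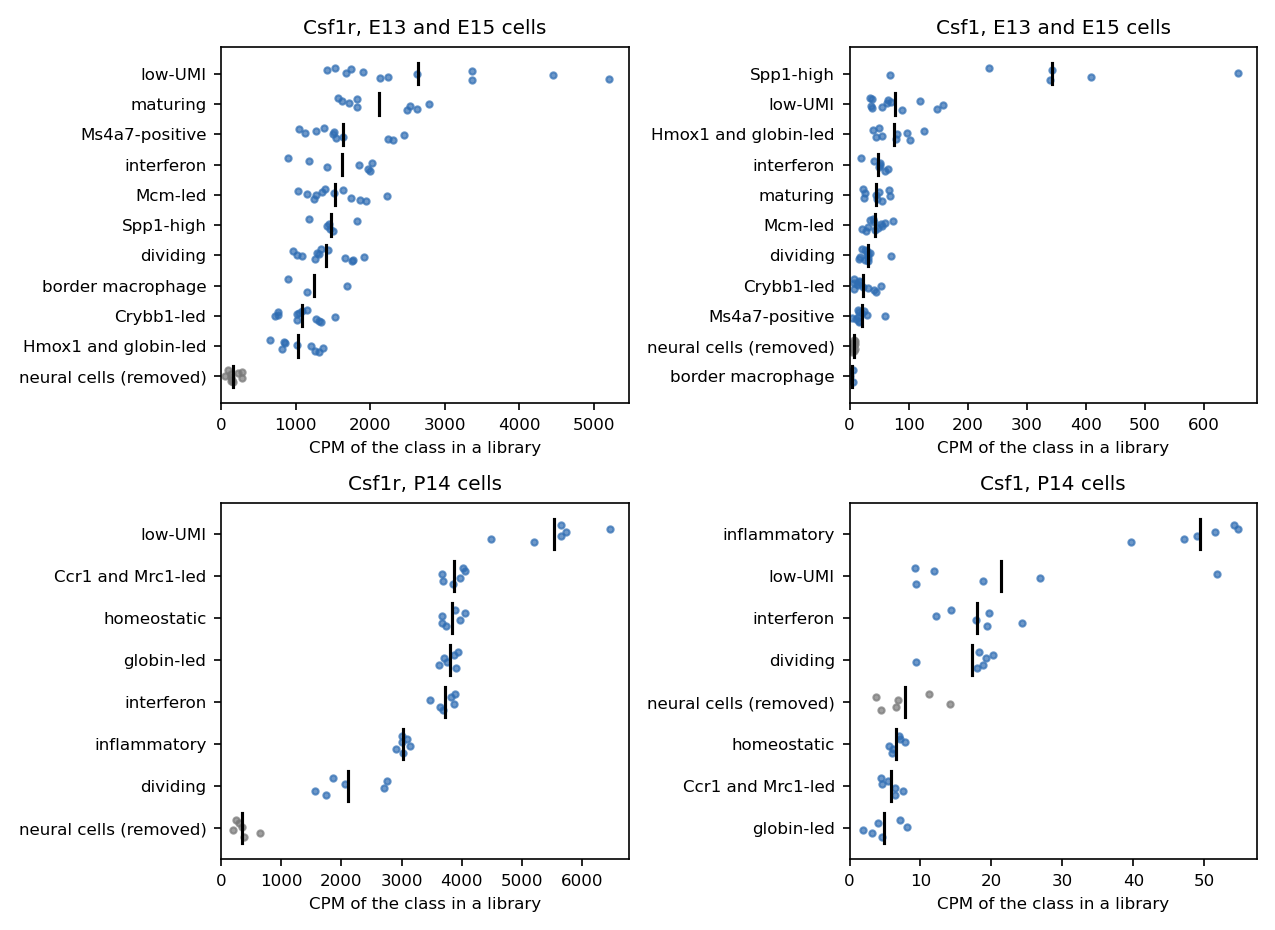
Csf1r (left) and Csf1 (right) in classes of sorted cells at E13 and E15 (top) and at P14 (bottom), in CPM on linear axes, with 1 point per library that held at least 20 cells of the class and a black line at their mean. Csf1 is highest in the embryonic Spp1-high class (mean 342 CPM) and the P14 inflammatory class (49.4 CPM), and the removed neural cells (grey), neurons together with glia or progenitors, have the lowest Csf1r of the classes drawn.

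At P14 the highest Csf1 was in an inflammatory class marked by Ccl3 and Ccl4, at 49.4 ± 5.58 CPM (n = 6), against 6.58 ± 0.814 CPM in homeostatic microglia (n = 6), or 6.44 ± 0.665 CPM without the 656 mixed cells. Low-UMI (21.3 CPM), interferon-responsive (17.95) and dividing cells (17.3) lay between, and Ccr1 and Mrc1-led (5.78) and globin-led cells (4.80) lay below. Most of the dividing cells had a barcode shared with another library, and without shared barcodes this class had 13.1 ± 5.61 CPM of Csf1. Inflammatory cells made up 4.53% to 7.96% of cells and gave 25.6% to 45.3% of Csf1 UMIs in each library. Against the next class, the low-UMI cells, they were higher in 5 of 6 libraries by 1.44 (log2, exact paired sign-flip test p = 0.0625, adjusted p = 0.243).

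The P14 order of Csf1r ran the other way for the inflammatory class. After the low-UMI cells (5528 ± 652 CPM), the Ccr1 and Mrc1-led (3878), homeostatic (3832 ± 160), globin-led (3801) and interferon-responsive cells (3728) had nearly equal means. Inflammatory cells had 3027 ± 81.6 CPM and dividing cells 2115 ± 507 CPM. Interferon-responsive cells exceeded inflammatory cells in 6 of 6 libraries by 0.30, and inflammatory cells exceeded dividing cells in 6 of 6 libraries by 0.55 (log2, adjusted p = 0.206 for each, exact paired sign-flip test). Of the 1110 dividing P14 cells, 66.49% had a barcode shared with another library. Without shared barcodes dividing cells had 2684 ± 370 CPM. Inflammatory cells then exceeded them in 4 of 6 libraries by 0.18 (log2, exact paired sign-flip test adjusted p = 0.41). The step between these classes thus shrank, but dividing cells kept the lowest mean of the microglial classes. Inflammatory cells then had 3024 CPM and homeostatic cells 3832 CPM.

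By cells, Csf1r UMIs were also found in removed neural cells of the sorted libraries. Shares were compared after thinning to 2000 UMIs, which left out shallower cells, among them 3467 of the 4462 embryonic low-UMI cells, 1530 of the 3633 embryonic neural cells and 168 of the 389 P14 neural cells. Shares before and after thinning therefore cover different cells. Of the cells kept, 77.1% to 97.9% in the embryonic microglial classes had a Csf1r UMI, and so did 13.03% of the neural cells (21.7% of all neural cells before thinning). The source of the UMIs in neural cells was not tested. For Csf1 the shares were 23.8% in Spp1-high cells (54.8% before thinning), 6.12% in maturing cells (23.0%) and 1.46% in neural cells (3.25%). At P14 they were 8.24% in inflammatory cells (20.0%), 1.28% in homeostatic cells (3.50%) and 0.956% in neural cells (2.83%).

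In the cortex nuclei Csf1r was the targeted gene, so its UMIs bear on the labels. The wild-type saline libraries had 23 and 11 Csf1r UMIs, and the wild-type MIA libraries 22 and 0. The Csf1r-/- saline libraries had 4 and 10 UMIs, and the Csf1r-/- MIA libraries 2 and 1. The library labelled wild-type MIA replicate 2 was the only one at 0 (exact Poisson upper limit 0.359 CPM), and the library labelled Csf1r-/- saline replicate 2 was next to the lower of the wild-type saline libraries.

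The same 2 libraries stood apart by microglial nuclei and by other microglial markers. Wild-type saline replicates 1 and 2 held 9 and 6 microglial nuclei, wild-type MIA replicate 1 held 9, the library labelled Csf1r-/- saline replicate 2 held 7 and the other 4 held 0. All 12 microglial markers were found in the 4 libraries with such nuclei (20.96 to 40.5 CPM in sum), and 3 to 6 of 12 were found in the other 4 (4.28 to 6.81 CPM). Of all Csf1r UMIs, 69.9% came from the 31 microglial nuclei, at 936 CPM (exact Poisson 95% interval 697 to 1231). Tags from the 3′ end may lie outside the deleted part of the allele, whose extent the sources used here do not give, so they do not check the allele by themselves.

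**Figure D4:**
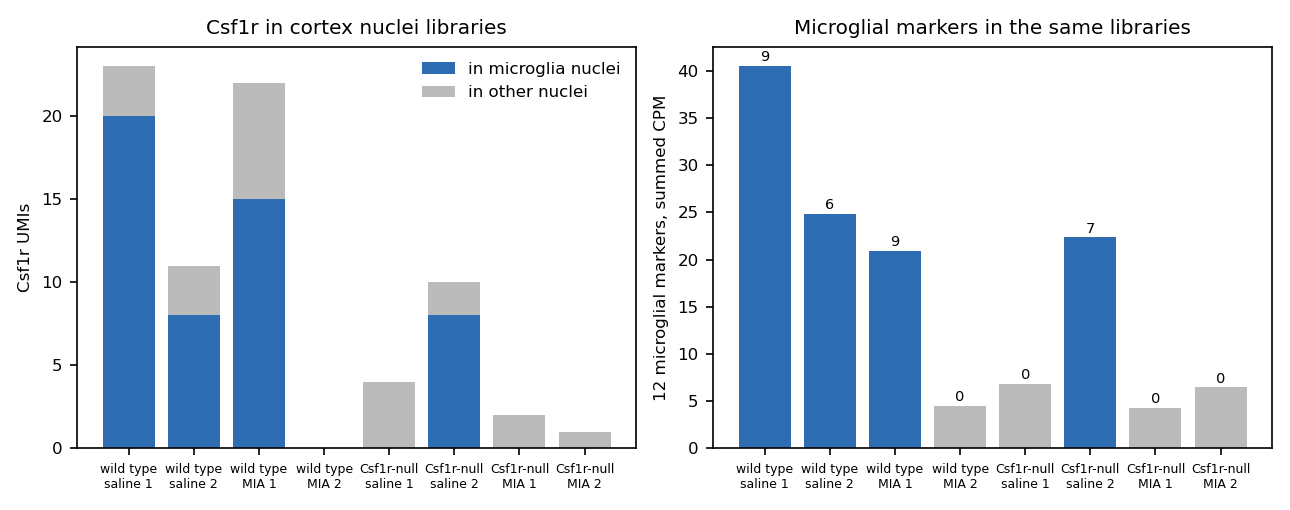
Left, Csf1r UMIs in each of the 8 nuclei libraries by label, split into microglial nuclei (blue) and other nuclei (grey). Right, summed level of 12 microglial markers (CPM) in the same libraries with the number of microglial nuclei above each bar. Wild-type MIA replicate 2 has 0 Csf1r UMIs and 4.47 CPM of markers, and Csf1r-/- (Csf1r-null) saline replicate 2 has 10 UMIs and 22.4 CPM.

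Between labelled genotypes Csf1r differed by -1.76 on the log2 scale over all nuclei (SE 0.91, edgeR adjusted p = 1.00, 0% of 14379 genes called). Without the 2 libraries that went against their labels the difference was -2.79 (adjusted p = 1.00). Leaving out wild-type MIA replicate 1 turned the direction, to 1.26, and leaving out any other 1 library gave -2.35 to -1.38. These values rest on 0 to 23 UMIs a library, most of them from the few microglial nuclei caught. The MIA differences in Csf1r, -1.04 in wild type and -2.36 in Csf1r-/- (SE 1.07 and 1.495), rest on the same few UMIs. The wild-type value was -7.07 without wild-type MIA replicate 1 and -0.18 without the library labelled wild-type MIA replicate 2. The Csf1r-/- value was -3.11 without Csf1r-/- saline replicate 1 and -1.16 without the library labelled Csf1r-/- saline replicate 2. With both libraries that went against their labels left out they were -0.18 and -1.18.

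Csf1 was the only member with enough UMIs in nuclei to compare cell classes. Over all nuclei it stood at 5.15 and 5.27 CPM in wild type after saline and at 6.95 and 9.33 CPM after MIA. In Csf1r-/- libraries it stood at 7.04 and 6.14 CPM after saline and 6.85 and 5.68 CPM after MIA. The libraries labelled wild-type MIA were both above those labelled wild-type saline, while the groups labelled Csf1r-/- overlapped. The library with 9.33 CPM and the one with 6.14 CPM were the 2 that went against their labels.

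None of these differences in Csf1 passed the edgeR test, in which 0% of genes were called in each contrast. With the replicate number as a block, which in nuclei also separates 2 versions of the counting software, edgeR called 2 genes for the difference of responses over all nuclei and 52 and 4 genes in progenitors for wild-type MIA and genotype. Csf1 was not among the calls, with a wild-type MIA difference of 0.56 over all nuclei (edgeR adjusted p = 0.40) and 0.39 in progenitors (adjusted p = 0.62) under the block. The wild-type MIA difference was 0.57 (log2, SE 0.25, unadjusted p = 0.051, adjusted p = 0.89) and 0.32 without the 2 libraries that went against their labels. The Csf1r-/- MIA difference was -0.07 (SE 0.25) and -0.13 without them. The difference between these responses was -0.64 (SE 0.35) and -0.45 without them. The genotype difference was -0.00 (SE 0.18, 95% interval -0.41 to 0.41) and 0.14 without them. DESeq2 called 5, 1, 2 and 0 genes in these 4 contrasts. In progenitor nuclei the wild-type MIA difference was 0.39 (SE 0.33), and in neuron nuclei it was 0.65 (SE 0.31), with edgeR adjusted p-values of 0.79 and 0.99. Without the 2 libraries these values were 0.22 and 0.32, and leaving out the library labelled wild-type MIA replicate 2 alone gave the same. In progenitors the value was 0.60 without wild-type saline replicate 1 and 0.23 without wild-type saline replicate 2.

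Csf1 was higher in progenitor than in neuron nuclei in 8 of 8 libraries. Progenitors had 12.97 and 9.21 CPM in wild type after saline, 13.8 and 16.8 after MIA, 18.1 and 11.7 in Csf1r-/- after saline and 15.6 and 10.9 after MIA. Neurons of the same libraries, in the same order, had 3.50 and 3.58, 4.68 and 6.92, 4.16 and 4.55, and 4.83 and 4.59 CPM. The ranges of the classes did not overlap. The difference was -1.33 for neurons against progenitors (log2, SE 0.14, edgeR adjusted p = 2.8e-08, 0.398-fold), in a comparison where 77.1% of 12521 genes were called and 38.6% were lower in neurons. It was -1.38 without the 2 libraries that went against their labels.

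Among classes with at least 20 nuclei in a library, apical progenitors, the radial glia that line the ventricle, had the most Csf1, at 20.0 ± 4.86 CPM (n = 8). Migrating neurons followed at 11.2 ± 3.08 CPM (n = 8), below apical progenitors in 8 of 8 libraries by a mean of 0.80 (log2, exact paired sign-flip test p = 0.0078, adjusted p = 0.103). Without the 2 libraries that went against their labels the means were 19.94 and 11.01 CPM (n = 6), and the difference was 0.83 with apical progenitors higher in 6 of 6. Globin-led nuclei (9.88), dividing progenitors (7.64) and intermediate progenitors (5.99) had lower means. Callosal (3.44), subcerebral (1.504) and corticothalamic neurons (0.785), interneurons (1.20) and striatal-like neurons (0.652) had least, and Cajal-Retzius cells had 0 UMIs in the libraries with at least 20 of them. The other means in this list kept their order without the 2 libraries, apart from striatal-like neurons, for which 1 library was then left. Neurons were no single group, since migrating neurons were above intermediate progenitors in their mean. Microglial nuclei, 31 in all, were too few in any library for this list. They held 2 Csf1 UMIs, or 36.7 CPM (exact Poisson 95% interval 4.45 to 133), an interval that includes the mean of apical progenitors. Free RNA bears on these levels, since near-empty droplets of the 4 replicate 1 libraries held Csf1 at 3.34, 10.0, 6.02 and 3.14 CPM. Apical progenitors were above that range in 8 of 8 libraries, while the means of the globin-led nuclei and of the classes listed after them lay inside or below it. Migrating neurons ranged from 5.73 to 15.6 CPM over libraries. The droplet levels rest on 7, 14, 9 and 4 Csf1 UMIs. The exact Poisson upper limit of the highest was 16.8 CPM, above the lowest apical progenitor library (14.5 CPM). Replicate 2 libraries list only called barcodes and gave no such level. The top of the range came from wild-type MIA replicate 1, whose droplets held barcodes of sorted cells. It was 9.03 CPM without those barcodes and 6.61 CPM in droplets of 1 to 100 UMIs. The mean of the globin-led nuclei lay above both values and that of the dividing progenitors above the second. At 1000 UMIs per nucleus, 1.97% of apical progenitors and 1.04% of migrating neurons had a Csf1 UMI (3.53% and 1.90% before thinning).

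**Figure D5:**
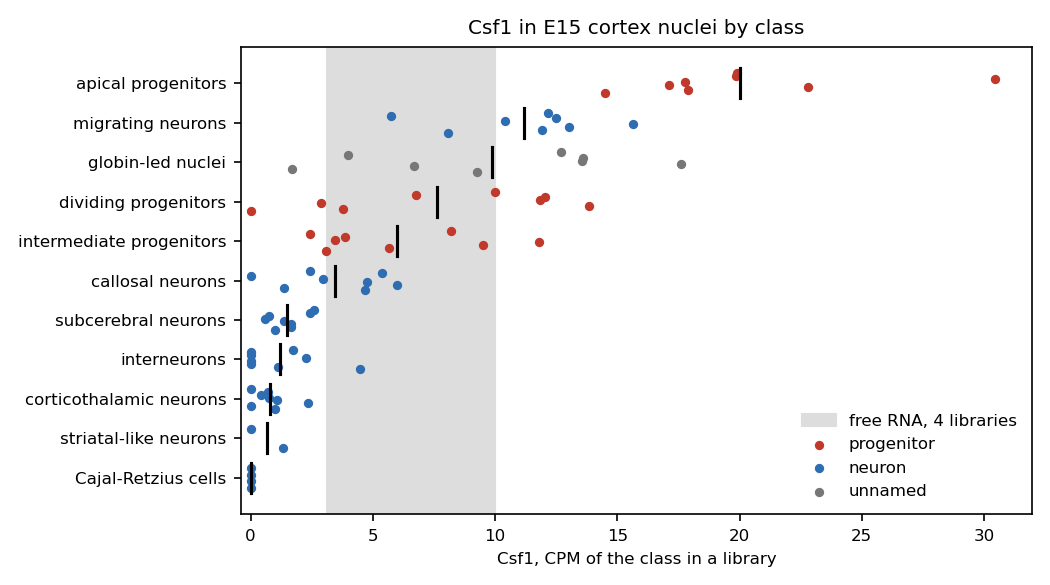
Csf1 level (CPM, linear axis) in 11 classes of cortex nuclei, with 1 point per library that held at least 20 nuclei of the class and a black line at the mean. The grey band spans the level in near-empty droplets of 4 libraries (3.14 to 10.0 CPM), a range that leaves out counting error, and all apical progenitor points lie above it.

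Il34 had 19 UMIs over all nuclei. Pericytes and endothelium, the cells of vessel walls, held 6 of them in 58 nuclei, or 42.4 CPM (exact Poisson 95% interval 15.55 to 92.2), which was 31.6% of Il34 UMIs from 0.146% of all UMIs. Subcerebral neurons had 4, apical progenitors 3 and corticothalamic neurons 2, and no other class had more than 1. Without the 2 libraries that went against their labels there were 15 Il34 UMIs, 5 of them in the vessel nuclei, 4 in subcerebral neurons, 2 in corticothalamic neurons and 1 in apical progenitors. In 8053 migrating neurons Il34 had 0 UMIs, which allows up to 0.201 CPM by the limit of 3 counts. At E15 the neuronal ligand of the adult forebrain was therefore at or near the limit of detection in neuron nuclei.

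The rest of the pathway was read from 72 genes grouped by role, of which 67 were tested in saline microglia and 68 in MIA microglia. From E13 to E15, 13 rose and 3 fell in saline libraries (23.9%, against 26.6% of all genes), with a median of 0.139 (log2) beside 0.0365 over all genes. From E15 to P14, 23 rose and 11 fell (50.7%, against 52.5%), with a median of 0.18 beside 0.0317. In MIA libraries 12 rose and 3 fell (22.1%, against 20.4%), then 18 rose and 9 fell (39.7%, against 30.6%). These shares were near the background in saline libraries. In the MIA against saline comparisons none was called.

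Among receptors and ligands, Csf3r, the receptor for granulocyte colony-stimulating factor, rose from E13 to E15 by 0.95 in saline and 1.03 in MIA libraries (log2). Kitl and Pdgfa, ligands of receptors of the CSF1R family, rose from E15 to P14 by 2.34 and 1.84 in saline and by 2.35 and 1.35 in MIA libraries. Of the other proteins that bind IL34, the phosphatase Ptprz1 rose by 2.14 from E13 to E15 in saline libraries, and in MIA libraries the difference was 2.08 (SE 0.74, edgeR adjusted p = 0.075). Its saline means were low, at 0.725 CPM at E13 and 3.04 CPM at E15, beside 776 CPM in neuron and 957 CPM in progenitor nuclei. From E15 to P14 Ptprz1 fell by 1.22 in saline libraries (edgeR adjusted p = 0.0091), a call lost without E15 saline replicate 1 (-0.73, adjusted p = 0.054), and in MIA libraries the difference was -1.37 (edgeR adjusted p = 0.22). The syndecan Sdc1 was called lower at P14 than at E15 in saline libraries, at levels near the floor (0.0385 against 0.262 CPM, with some P14 libraries at 0), so its fold is poorly fixed. The same call in MIA libraries (0.0197 against 0.235 CPM, edgeR adjusted p = 0.035) was lost on leaving out any 1 of 5 libraries. Ptprz1 is also a marker of radial glia, and the summed level of 6 neuron markers ranged from 24.9 to 44.5 CPM at E13, 27.6 to 232 CPM at E15 and 8.26 to 21.5 CPM at P14, so its part from other cells was not tested. Apart from the values of Ptprz1 after the first and the MIA values of Sdc1, those named in these sentences passed the edgeR test with every single library left out.

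Among adaptors and inhibitors, Trem2, a microglial lipid receptor, rose by 0.69 from E13 to E15 in saline and by 0.90 in MIA libraries. Tyrobp, the adaptor that carries signals for TREM2 and CSF1R, rose by 0.54 and 0.69, but the MIA call was lost without E13 replicate 1 or 2, E15 replicate 2 or P14 replicate 1 or 2 (0.58 to 0.71, edgeR adjusted p up to 0.12). Its fall of 0.32 from E15 to P14 in saline libraries was lost without E15 replicate 2 or 3 or P14 replicate 2, 3F or 3M (-0.33 to -0.26, edgeR adjusted p up to 0.098). Dok2, an adaptor that dampens tyrosine kinase signals, fell from E15 to P14 by 2.47 in saline and by 4.29 in MIA libraries. With 1 library left out the log2 differences were -2.99 to -1.74 and -5.82 to -3.46. In the P14 MIA libraries Dok2 was near the floor, at 0.131 and 0.671 CPM, so the size of its fall is poorly fixed.

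Among the factors that act at the Csf1r gene, Ets1 rose from E15 to P14 by 1.59 and 1.64 in saline and MIA libraries (log2), and Ets2 fell by 0.81 from E13 to E15 in saline libraries. Spi1, which encodes the macrophage factor PU.1, had differences of 0.28 (adjusted p = 0.103) and -0.21 in saline libraries, and neither passed the edgeR test. Among growth targets of the receptor, Ccnd2 and Myc, which drive entry into the cell cycle, fell from E15 to P14 by 1.97 and 1.61 in saline libraries, beside the fall in dividing-cell markers given above.

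In nuclei the classes were made with the pathway genes among those clustered, so their differences are a description. Kit and Kitl, a receptor and its ligand of the CSF1R family, were higher in neurons than in progenitors by 2.89 and 2.35 (log2). Pdgfrb was lower in neurons by a log2 difference of -4.52 and Jun, an immediate early gene, by -3.11. The median over the 43 pathway genes tested was 0.267, beside -0.000855 over all genes.

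The genes whose pattern was most like that of a member are given as a description, over points that share libraries, depth and age. Over the 18 sorted libraries and 7888 genes, the Pearson correlations of log2(CPM + 1) with Csf1r were among the highest for Trim5 (0.987), Serinc1 (0.984), Tsga10 (0.984) and P2rx7 (0.983). With Csf1 they were Ccl3 (0.987), Vat1 (0.962), Cd63 (0.96), Bnip3 (0.951) and Sdc4 (0.95). Csf1 and Ccl3 correlated at 0.969 over the 12 embryonic libraries alone, and Csf1r and Csf1 at -0.668 over all 18 but at 0.338 over the 12 embryonic ones. Over 13 classes of nuclei and 10333 genes, Csf1 was most like Cdk12 (0.922), Baz1a (0.914), Spty2d1 (0.911), Cmtm8 (0.91) and P4ha1 (0.894). Among these classes microglia, with the highest Csf1, held 2 Csf1 UMIs and vessel nuclei 1, so this order is poorly fixed. Il34 was most like Apod (0.979), Abcc9 (0.972), Tbx2 (0.97), Pde8a (0.967) and Ndufa4l2 (0.966), an order set by the 6 UMIs in vessel nuclei.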

How the data were processed

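The authors deposited raw UMI counts per gene and barcode, made with Cell Ranger (3.1.0 or 6.0.1 per the file headers) against mm10, with no normalization. Replicate 1 nuclei list all barcodes and replicate 2 nuclei only called ones. Genes were joined by Ensembl identifier. A nucleus needed 500 UMIs and 200 genes, and a sorted cell 500 genes and no more than 20% mitochondrial UMIs. The highest Scrublet scores were removed at 0.8% per 1000 cells. Cells were clustered without the 3 members on 2000 variable genes, 30 principal components and 20 neighbours at a Leiden resolution of 1 (scanpy 1.11.5, leidenalg 0.10.2, igraph 0.11.9, Python 3.11.15), and clusters of neural and other non-microglial cells were removed from sorted libraries, except 1 embryonic low-UMI cluster and 1 P14 cluster of mixed neural and microglial genes. The cells and names are rebuilt and may differ from the study's.

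Sums of UMIs over the cells of each library, in all or by class, were tested across libraries with edgeR 4.0.16 in R 4.3.3 (quasi-likelihood test, TMM factors, filterByExpr, Benjamini-Hochberg adjustment within each comparison, threshold 0.05). The script was tested on simulated data. DESeq2 1.42.0, RLE factors, no low-count filter, kept doublets, removed shared barcodes, no removed cluster, a replicate block and each library left out were alternatives. Class levels used libraries with at least 20 cells of a class and a pseudocount of 1. Neighbouring classes were compared by exact sign-flip tests. Intervals and the limit of 3 counts cover counting error only.

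Same-numbered libraries deviated together at E13 (r 0.145 to 0.523) and at E15 (0.401 to 0.712), in 3 of 3 pairs each, though the labels state no pairing. At P14 the 2 same-numbered pairs did so too (r 0.283 and 0.312). The main tests left this pairing out, so their SEs and intervals ignore it. With the replicate block, run as an alternative, no call on a member changed between MIA and saline at E13 or E15. In nuclei, with 2 libraries a group and so 6 distinct values a fit, r was 0.498 to 0.767, and the replicate number follows the Cell Ranger version. Blocked values in nuclei are printed for Csf1 alone, for its wild-type MIA difference over all nuclei and in progenitors and its genotype difference over all nuclei.

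Members and lists were chosen with earlier results of these data known. Named are the 3 members in every comparison, up to 4 called pathway genes of largest change per direction, Tyrobp, Spi1, Trem2 and Ptprz1, and the 5 genes most like a member in pattern among those with a mean of at least 10 CPM. Some genes and 1 class that these rules name are not reported here.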

Additional observations from a re-analysis of the deposited data

Results flagged for a closer look

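Csf1r stood at 120 CPM in the near-empty droplets (barcodes of 1 to 50 UMIs) of the nuclei library wild-type MIA replicate 1. Such droplets held 4.29 CPM in wild-type saline replicate 1, 2.68 in Csf1r-/- saline replicate 1 and 4.71 in Csf1r-/- MIA replicate 1. No test used the droplets, though their Csf1 levels gave the range set beside the classes of nuclei. The Csf1r value of 120 CPM rests on 168 UMIs (exact Poisson 95% interval 103 to 140 CPM, counting error only). It was 10.5 CPM without barcodes that are also cells of a sorted library. Of the cell barcodes of P14 saline replicate 2, 63.51% (2419 of 3809) were found among the barcodes of 11 to 50 UMIs of that nuclei library, against 0.15% to 0.71% for the other sorted libraries. Csf1 in the same droplets stood at 10.0 CPM, against 3.14 to 6.02 CPM in the other 3 libraries. No library stood far from its group in the 3 groups of 4 that could be examined, those of Csf1r, Csf1 and Il34 in P14 saline microglia.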

How the results depend on the processing

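Every call on Csf1 between E15 and P14 and between neuron and progenitor nuclei kept its direction and its side of the threshold under every alternative run. Apart from Csf1r in nuclei without wild-type MIA replicate 1, changes of sign concerned values near 0. The E13 MIA difference in Csf1r was 0.0029 with DESeq2, 0.0032 with RLE factors and 0.019 without low-UMI clusters. At E15 it was -0.050 with no cluster removed and -0.0017 with the replicate block, and the difference of these responses was -0.040 with no cluster removed. The genotype difference in Csf1 over all nuclei was 0.016 without shared barcodes, 0.015 with the replicate block and 0.14 without the 2 libraries that went against their labels. In neuron nuclei of at least 1000 UMIs, Csf1 differed by -0.025 between genotypes and by -0.015 after MIA in Csf1r-/-. Spi1 in MIA microglia from E15 to P14 was 0.035 with no cluster removed, and Ptprz1 in neurons against progenitors was 0.061 with no low-count filter and 0.0099 without shared barcodes.

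In MIA microglia from E13 to E15, Csf1 was 1.03 (adjusted p = 0.052) and Csf1r 0.61 (adjusted p = 0.15) with no cluster removed, and Csf1r was 0.71 (adjusted p = 0.074) with the replicate block. From E15 to P14, Csf1r was 0.90 (adjusted p = 0.057) and 0.76 (adjusted p = 0.072) in turn. All p-values here are edgeR's. The cause was not tested. The block changed no other call on a member, and moved the genes called from 0 to 5 at E13, to 52 and 4 in progenitors for wild-type MIA and genotype, and to 2 for the difference of responses over all nuclei.

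With 1 library left out, or the 2 that went against their labels, the E13 MIA difference ranged from -0.37 to 0.10 for Csf1 and -0.088 to 0.13 for Csf1r, and for Csf1r at E15 from -0.16 to 0.20, with a difference of responses of -0.11 to 0.26. From E13 to E15, MIA libraries gave 0.71 to 1.53 for Csf1 and 0.53 to 0.90 for Csf1r, and saline libraries 0.10 to 0.85 and 0.55 to 0.84. From E15 to P14, Csf1r in MIA libraries was 0.59 to 0.96. Over all nuclei, the genotype difference ranged from -0.11 to 0.12 for Csf1 (0.14 without both those libraries) and -2.79 to 1.26 for Csf1r, and the difference of responses in Csf1r from -2.20 to 4.71. Csf1 by genotype was -0.051 to 0.31 in progenitors and -0.14 to 0.18 in neurons, and after MIA in Csf1r-/- -0.43 to 0.12 and -0.015 to 0.25. Ptprz1 in neurons against progenitors was -0.076 to 0.14.

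Csf1r in near-empty droplets of wild-type MIA replicate 1 was 38.5 CPM at 1 to 10 UMIs, 53.2 CPM at 1 to 100 UMIs and 10.5 CPM without barcodes of sorted cells, and 0.799 CPM in Csf1r-/- MIA replicate 1. Il34 in Csf1r-/- saline replicate 1 was 0 at 1 to 10 UMIs. Kept doublets were not run within classes of nuclei. Leaving out the low-UMI or Spp1-high clusters, shared barcodes or barcodes of sorted cells was chosen after seeing the data.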
